A study of Mus musculus with 6 samples.

Results

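Genes of the Wnt pathway were followed across the cell types, astroglial sub-clusters and ages of a single-cell RNA-seq experiment on mouse striatum. Members were chosen by name. They were every gene of the count table whose symbol starts with Wnt, Fzd, Sfrp or Dkk and a number, together with Lrp5, Lrp6, Axin2, Lef1, Tcf7, Apcdd1, Nkd1 and Ctnnb1. This gave 46 of 32285 genes. By role they were 19 Wnt ligands, 11 Fzd (Frizzled) entries, 2 co-receptors, 8 secreted inhibitors, 3 intracellular or nuclear components and 3 feedback targets. One Fzd entry, Fzd10os, is a non-coding RNA from the strand opposite to Fzd10 and not a receptor.

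Wnt proteins are secreted lipid-modified ligands that bind Frizzled receptors with the co-receptors Lrp5 and Lrp6. In the canonical branch this protects β-catenin, the product of Ctnnb1, from a destruction complex, and β-catenin then acts with DNA-binding partners such as Lef1 and Tcf7 on target genes that include the feedback inhibitors Axin2, Nkd1 and Apcdd1. In the developing brain, Wnt7a and Wnt7b from neural cells act on blood vessels and are needed for vessel growth and the blood-brain barrier, and Wnt signals also pattern the forebrain and regulate dividing progenitors.

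The 6 libraries compared were 3 from postnatal day 3 (P3) and 3 from animals of 3 months (3m), all from wild type male C57BL/6 mice, with no treatment. Dissociated striatum was enriched for astrocytes by magnetic sorting on the surface protein ACSA2, and the tissue next to the lateral ventricle was excluded. Each library was a separate preparation from several pooled brains per the study's methods, so that values describe preparations and not single animals. The libraries held 16690 barcodes, of which 14373 carried an annotation by the authors, and 9992 of these were astroglial (8874 at P3 and 1118 at 3m). A level is given as CPM, the share of a gene among all unique molecular identifiers (UMIs) of the summed cells of one library, scaled to a total of 1000000. Levels of different genes were not compared, and a lower CPM in a cell group cannot be told apart from a larger share of other RNA in those cells.

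Astroglial sums held 22327104 to 30617140 UMIs per P3 library but only 1157485 to 1843998 per 3m library, so low genes were measured less precisely at 3m. Median UMIs per astroglial cell were 7307 at P3 and 3631 at 3m, and the median share of mitochondrial UMIs was 1.65% and 6.39%. Across all astroglia the label matched its markers, since 8 astrocyte markers summed to 4830–5850 CPM at P3 and 13500–14300 CPM at 3m. Sub-cluster 16 of 3m (121 cells) went against it, with 12100 CPM of oligodendrocyte and 10900 CPM of astrocyte markers in the 1 library with enough cells. Over all astroglial cells, 6 oligodendrocyte markers summed to 5.45–6.4 CPM at P3 and 708–1860 CPM at 3m. The 6 endothelial markers summed there to 2.32–14.8 CPM at P3 and 0–2.72 CPM at 3m, with 3 to 6 of them at 0 in each 3m library. Microglia markers summed to 0.269–1.02 CPM at P3 and 6.11–52.1 CPM at 3m. The part of mitochondrial share and of these markers in the age differences was not tested. Several astroglial sub-clusters came almost wholly from one library. P3 replicate 1 gave 95.5% of sub-cluster 1, P3 replicate 3 gave 98.0% of sub-cluster 4 and 96.1% of sub-cluster 12, and 3m replicate 1 gave 98.9% of sub-cluster 14. Sub-clusters 4 and 12 were also shallow at P3, with medians of 1047.5 and 985.5 UMIs per cell. The regional mix also differed between libraries. Sub-clusters that the study places outside the telencephalon gave 151 of 1985, 906 of 3103 and 1949 of 3786 astroglial cells at P3. At 3m they gave 17 of 213, 257 of 546 and 49 of 359. The age comparison in telencephalic sub-clusters alone is given below. In all, 15 astroglial barcode sequences occurred in more than one library.

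Of the 46 members, 45 had a gene model in the GENCODE M21 annotation. In GRCm38, Wnt7a (chr6:91363981-91411363) and Wnt5b (chr6:119432531-119544347) are on the minus strand, as is Wnt7b (chr15:85535437-85582473). Sfrp2 (chr3:83766321-83774316), Lef1 (chr3:131110471-131224356), Fzd2 (chr11:102604396-102608058), Axin2 (chr11:108920349-108950783), Ctnnb1 (chr9:120929216-120960507) and Sfrp1 (chr8:23411502-23449632) are on the plus strand.

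The DNA letters that Lef1 and Tcf7 proteins recognise, CTTTGA on either strand (TCAAAG read from the other strand), were searched in RefSeq promoters of GRCm38.p6, from 250 bases before to 50 bases after each start. Of the 46 members, 30 had an entry, with 38 promoters. The motif was in 5 of the 38 (13.2%), against 5257 of all 32851 promoters (16%). With one more base, CTTTGAT, it was in 2 of 38 (5.26%), against 3.73% of all. A match is only a run of letters, and its share among the members was close to that among all promoters. Windows of 30 bases are shown for the 3 matching genes described below as members with cell-type-restricted levels, with the motif in capitals. Both Lef1 windows and the Wnt5b window lie inside the gene models, before internal starts.
Lef1, chr3:131156102-131156131, plus strand: taaaatacatggTCAAAGgaaaataggtat
Lef1, chr3:131156162-131156191, plus strand: cattgtctgttcTCAAAGtcaggtcttgca
Wnt5b, chr6:119449440-119449469, minus strand: gagtaagtctctCTTTGAtctgctccctgt
Wnt11, chr7:98835050-98835079, plus strand: gacgtgggcggaTCAAAGcgacggtccgcg

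Most Wnt ligand genes were barely seen in these libraries. Wnt3a and Wnt10b had no UMI in any barcode, and 10 members (Wnt1, Wnt2, Wnt2b, Wnt8a, Wnt8b, Wnt9b, Wnt10a, Wnt16, Dkk1 and Dkk4) had between 1 and 20 UMIs over all barcodes. In the comparison of astroglia between ages, 31 members had enough UMIs to be tested and 15 did not, 13 of them ligands. The ligands tested there were Wnt4, Wnt5a, Wnt5b, Wnt7a, Wnt7b and Wnt9a.

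The first question was how these genes differed between immature and mature astroglia. At 3m, 6 receptor entries were higher (Fzd2, Fzd4, Fzd5, Fzd6, Fzd10 and Fzd10os), while Fzd3, the ligands Wnt5a and Wnt5b, the secreted inhibitors Sfrp1, Sfrp2 and Dkk2, Ctnnb1 and Apcdd1 were lower. Wnt7a, Wnt7b, both co-receptors, Dkk3, Sfrp5 and Lef1 were not called. A call required both an adjusted p no larger than 0.05 and a log2 fold change of 1 or more in either direction, in edgeR's quasi-likelihood test on UMIs summed per library, adjusted over all genes tested. Of the 31 members tested, 6 were called higher and 8 lower. Among all 13530 genes tested, 15.8% were called higher and 16.3% lower. The median log2 fold change was -0.14 over the members and -0.04 over all genes. With libraries scaled by their totals alone, the split of the members was 4 higher and 9 lower, and the median of all genes was -0.24.

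**Figure D1:**
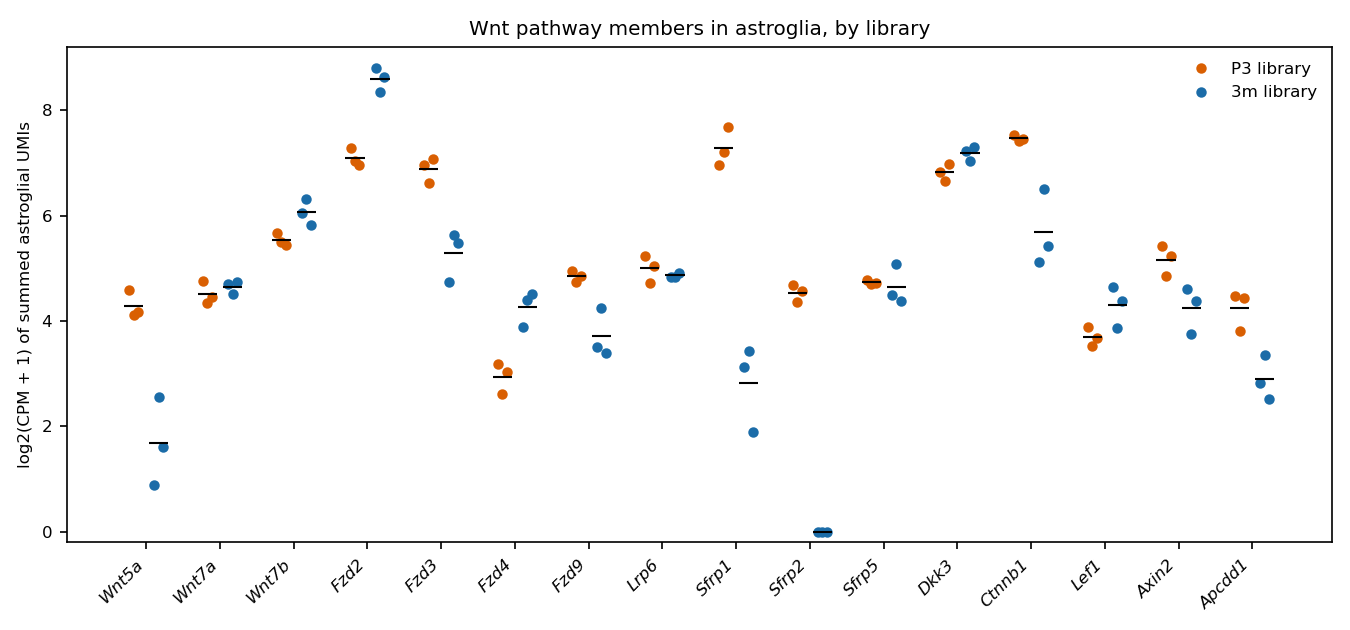
Level of 16 members in astroglia, as log2(CPM + 1), with each point one library and each bar the mean of the 3 libraries of an age. Sfrp2 was at 0 in every 3m library and Sfrp1 fell from 123–205 to 2.72–9.76 CPM, while Fzd2 rose from 124–155 to 324–443 CPM and Wnt7a overlapped between ages.

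Among the ligands, Wnt5a, which mostly signals outside the β-catenin branch, was at 23.0, 16.4 and 17.1 CPM in the 3 P3 libraries and at 0.864, 4.88 and 2.04 CPM in the 3 at 3m. Every 3m library was below every P3 library, and the fall was -2.51 ± 0.39 (log2 fold change ± SE, adjusted p = 0.000148 by edgeR). The related ligand gene Wnt5b had 170 UMIs at P3 and 2 at 3m, which is 4.91 times the 3m level at P3 (95% counting interval, 1.34 to 40.8). Its call (adjusted p = 0.0397, edgeR) was lost when any one 3m library was left out and with DESeq2 (adjusted p = 0.109).

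Neither vessel-acting ligand was called. Wnt7a was at 26.2, 19.3 and 20.9 CPM at P3 and at 25.1, 21.7 and 25.8 CPM at 3m, and the ages overlapped (log2 fold change 0.31, adjusted p = 0.198 by edgeR). Wnt7b was at 50.1, 44.4 and 42.7 CPM at P3 and at 65.7, 78.6 and 55.7 CPM at 3m. The 3m libraries were all above the P3 libraries, with a log2 fold change of 0.74 and an adjusted p of 0.00348 (edgeR), under the fold needed for a call. In telencephalic astrocytes alone, whose Wnt7b levels are given below, the ages overlapped.

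Receptors moved in both directions. Fzd2, the Frizzled gene with the clearest gain, was at 155, 131 and 124 CPM at P3 and at 443, 324 and 397 CPM at 3m. The lowest 3m library was far above the highest P3 library, and the change was 1.69 ± 0.18 (adjusted p = 7.62e-06, edgeR). Fzd3, a receptor known for axon guidance and planar polarity, was at 123, 97.8 and 133 CPM at P3 and at 25.9, 48.8 and 43.5 CPM at 3m. It fell in every 3m library, by 1.35 ± 0.22 on the log2 scale (adjusted p = 0.000201, edgeR).

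Fzd4, also the receptor of the ligand Norrin, was at 8.06, 5.13 and 7.16 CPM at P3 and at 13.8, 20.1 and 21.7 CPM at 3m, and Fzd6 was at 4.57, 5.0 and 6.75 against 9.5, 13 and 12.2 CPM. For both, no P3 library reached the lowest 3m library, with changes of 1.68 ± 0.25 for Fzd4 and 1.31 ± 0.28 for Fzd6 (adjusted p = 0.000134 and 0.00176, edgeR). The call of Fzd6 was lost with all libraries thinned to the smallest astroglial sum (0.73, adjusted p = 0.102). Over all barcodes of each library, whatever their cell type, neither rose (-0.12 for Fzd4 and -0.37 for Fzd6).

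Fzd10 and its antisense RNA Fzd10os were higher at 3m together. Fzd10 was at 6.23, 5.88 and 5.9 CPM at P3 and at 12.1, 8.68 and 12.2 CPM at 3m, and Fzd10os was at 11.8, 11.9 and 10.3 against 21.6, 20.6 and 25.8 CPM. Neither overlapped between ages. Fzd10os rose by 1.18 ± 0.21 (adjusted p = 0.000432, edgeR). The change of Fzd10 was 1.04 ± 0.26 (adjusted p = 0.00526), just past the fold needed, and it fell short of it without 3m replicate 1 (0.94) or 3m replicate 3 (0.88). Fzd5 rested on one library. It was at 3.72, 4.74 and 6.59 CPM at P3 and at 5.18, 15.7 and 8.83 CPM at 3m, so that 3m replicate 1 lay within the P3 range. The change was 1.25 ± 0.37 (adjusted p = 0.0137, edgeR), and 0.65 (adjusted p = 0.242) without 3m replicate 2.

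Fzd9, Fzd8 and the co-receptors were not called. Fzd9 was at 30.0, 25.9 and 27.9 CPM at P3 and at 10.4, 17.9 and 9.51 CPM at 3m. All 3m libraries were below all P3 libraries, but the log2 fold change of -0.91 was under the threshold (adjusted p = 0.00642, edgeR). The co-receptor gene Lrp6 was at 36.7, 25.3 and 31.9 CPM at P3 and at 27.6, 27.7 and 29.2 CPM at 3m, overlapping between ages (log2 fold change 0.05). Lrp5 was at 4.75, 4.93 and 6.06 against 2.59, 9.76 and 7.47 CPM, with the P3 values inside the range of the 3m values.

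Of the 6 secreted inhibitors tested, 3 fell. Sfrp1, a soluble Frizzled-like decoy, was at 123, 147 and 205 CPM at P3 and at 7.78, 9.76 and 2.72 CPM at 3m. Even the lowest P3 library was far above the highest 3m library, and the change was -4.33 ± 0.32 (adjusted p = 2.55e-07, edgeR). Sfrp2, a decoy of the same family, was at 24.6, 19.5 and 22.7 CPM at P3 and had no UMI in any 3m library. It was at least 32.8-fold higher at P3, taking 3 UMIs over the 3m libraries as the floor (adjusted p = 1.64e-06, edgeR). Dkk2, an Lrp-binding antagonist, had 105 UMIs at P3, or 1.27–1.52 CPM, and none at 3m, at least 2.02-fold higher at P3.

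Other inhibitors were not called over all astroglia. Dkk3, a divergent member of the Dickkopf family, was at 113, 99.8 and 126 CPM at P3 and at 149, 131 and 157 CPM at 3m. Every 3m library was higher, with a log2 fold change of 0.56 (adjusted p = 0.00987, edgeR) that was too small for a call. Sfrp5 was at 26.6, 25.1 and 25.5 CPM at P3 and at 21.6, 33.1 and 19.7 CPM at 3m, with overlapping ages. In the telencephalic sub-clusters alone it was called lower at 3m, as given below.

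Among the intracellular components, Ctnnb1 was at 184, 169 and 175 CPM at P3 and at 33.7, 89.5 and 42.1 CPM at 3m. All 3m libraries were below all P3 libraries, and 3m replicate 2 was the highest of them (-1.44 ± 0.28, adjusted p = 0.000825, edgeR). Lef1, one of its DNA-binding partners, was at 13.7, 10.5 and 11.8 CPM at P3 and at 24.2, 13.6 and 19.7 CPM at 3m. The highest P3 library lay just above the lowest 3m library, and its log2 fold change of 0.84 (adjusted p = 0.009, edgeR) was not a call. Tcf7 was at 3.17–4.52 CPM at P3 and 1.63–2.72 CPM at 3m, without overlap but not called (log2 fold change -0.56) and on 10 UMIs in all at 3m.

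Of the feedback targets, Apcdd1, a membrane-bound inhibitor, was at 21.3, 13.1 and 20.7 CPM at P3 and at 6.05, 9.22 and 4.75 CPM at 3m. It fell in every 3m library (-1.21 ± 0.3, adjusted p = 0.0046, edgeR). Its call was lost when libraries were thinned (-0.99) or cells filtered more strictly (adjusted p = 0.0628, edgeR). The stricter filter left only 12 astroglial cells in 3m replicate 1. Axin2, part of the destruction complex and a widely used readout of canonical signalling, was at 41.9, 27.9 and 36.4 CPM at P3 and at 23.3, 12.5 and 19.7 CPM at 3m. Those ages did not overlap either, but the log2 fold change of -0.78 (adjusted p = 0.0136, edgeR) was under the threshold. Nkd1, which binds Dishevelled, was at 36.0, 32.9 and 23.4 against 24.2, 17.4 and 21.7 CPM, and the ages overlapped (-0.38, adjusted p = 0.198).

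Other cell types in the 3m astroglial sum were checked beside these changes. In 3m oligodendrocytes, Fzd2 was at 4.93–6.27 CPM, Sfrp1 at 0.787–1.29 CPM and Ctnnb1 at 67.5–85.3 CPM. In the telencephalic sub-clusters alone, where oligodendrocyte markers at 3m summed to 201–354 CPM, 13 members were called, 4 higher and 9 lower, and 11 of them were among the 14 of all astroglia. Fzd2, Fzd3, Sfrp1 and Ctnnb1 kept their calls there, while Fzd10 (0.91), Fzd10os (0.96) and Wnt5b lost them. The other members that passed there were Sfrp5 (-1.37, adjusted p = 0.00109, edgeR) and Fzd9 (-1.66, adjusted p = 3.33e-06, edgeR). In astroglia without cells that held any endothelial marker UMI the 14 members stayed called.

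Other genes of the pathway were counted from 10 lists with 59 genes in all, of which 47 were tested in astroglia; 11 were higher at 3m and 9 lower, where 15.8% and 16.3% of all genes were, with a median log2 fold change of -0.05. Both genes for ligand secretion were higher. Wls, the carrier that takes Wnt proteins to the cell surface, was at 29, 23.4 and 29.7 CPM at P3 and at 265, 194 and 270 CPM at 3m, and all 3m libraries were several-fold above all P3 libraries (3.34 log2 units). Ndp, which encodes the Frizzled ligand Norrin, was at 27.9, 20.2 and 19.2 against 76.9, 48.8 and 66.6 CPM, also without overlap (1.69 log2 units). Lgr4 (3.48) and Rspo3 (3.91), receptor and ligand of the R-spondin branch that enhances Wnt signals, were higher as well. Of the 5 other targets, 4 were lower: Ccnd1, which drives cells into the cycle, fell from 161, 119 and 114 to 1.73, 4.34 and 1.36 CPM, Sp5 from 45.4, 37.4 and 51.6 to 4.32, 3.25 and 6.11 CPM, and Myc and Nkd2 fell too. Markers of dividing cells summed to 350–455 CPM in P3 and 0–0.542 CPM in 3m astroglia, and their part in these changes was not tested.

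The next question was how the members differed between astrocytes of telencephalic and non-telencephalic sub-clusters, as the study places them, in the same P3 libraries. Non-telencephalic astrocytes had more Sfrp1, Fzd5, Fzd8, Wnt4 and Wnt9a and less Lef1, Fzd9, Fzd10, Fzd10os, Fzd7, Nkd1, Apcdd1, Wnt7b and Dkk2. Of 31 members tested, 5 were called higher (12% of 13524 genes were) and 9 lower (6.68% were). The member median was -0.47 and that of all genes -0.01. Scaled by library totals alone, 7 members were higher and 6 lower, with a median over all genes of 0.13. Other markers differed between the same groups: ependymal markers summed to 148–196 CPM in non-telencephalic and 9.81–15 CPM in telencephalic astrocytes, neuron markers to 26–34.3 against 10–10.6 CPM and cycling markers to 42.1–163 against 21.3–25.8 CPM, and their part in these differences was not tested. The sub-clusters were drawn by the authors from these same counts, here and for every cell type below, so p-values between cell groups measure only how evenly the libraries agree.

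Sfrp1 was at 107, 68.1 and 83.5 CPM in telencephalic and at 600, 485 and 518 CPM in non-telencephalic astrocytes of the 3 libraries. All libraries agreed, with a difference of 2.52 ± 0.08 (adjusted p = 2.88e-12, edgeR with library as a block). Fzd5, a receptor of eye and hypothalamic development, was at 1.77, 0.658 and 1.77 CPM in telencephalic and at 30.1, 19.4 and 17.5 CPM in non-telencephalic astrocytes. The groups were far apart in every library (3.89 ± 0.26, adjusted p = 7.45e-09, edgeR). Wnt9a went from 0.262, 0.12 and 1.01 to 5.02, 5.53 and 6.81 CPM and Fzd8 from 17.5, 11.4 and 13.8 to 41.8, 27 and 31.1 CPM, both higher in each library (3.59 and 1.08 log2 units). Sfrp5 was also higher in each library, at 32.2, 21.6 and 24.9 against 66, 57.6 and 42.9 CPM, but its difference of 0.96 was not a call.

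Lef1 had the largest negative difference among the members tested. It was at 14.3, 14.5 and 17.2 CPM in telencephalic and at 2.51, 0.813 and 4.86 CPM in non-telencephalic astrocytes. Even the highest non-telencephalic library was below the lowest telencephalic one (-2.62 ± 0.29, adjusted p = 2.09e-06, edgeR). Fzd9 was at 37.2, 37.1 and 41.5 against 5.85, 4.55 and 11.1 CPM, with the same lack of overlap (-2.5 ± 0.18, adjusted p = 1.57e-08, edgeR). Fzd10 (-2.29) and Fzd10os (-2.39) were lower side by side. Nkd1, at 35, 36.6 and 25 against 10, 12.4 and 11.4 CPM (-1.55), and Wnt7b, at 53.2, 51 and 51.7 against 20.1, 28.8 and 27.1 CPM (-1.09), were lower in every library too. Axin2 (-0.51), Wnt7a (-0.73) and Wnt5a (-0.92) were under the fold threshold. The calls of Wnt4 (0.89 without P3 replicate 1), Dkk2 (-1.15 without P3 replicate 2, adjusted p = 0.161), Apcdd1 (-0.89 without P3 replicate 2) and Fzd7 (-0.97 without P3 replicate 1 and -0.87 without P3 replicate 2) were lost when a library was left out. The shallow sub-clusters 4 and 12 held 719 and 273 of the 1949 non-telencephalic cells of P3 replicate 3. Without sub-clusters 4 and 12, an alternative chosen after seeing the data, 18 members were called, 6 higher and 12 lower.

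**Figure D2:**
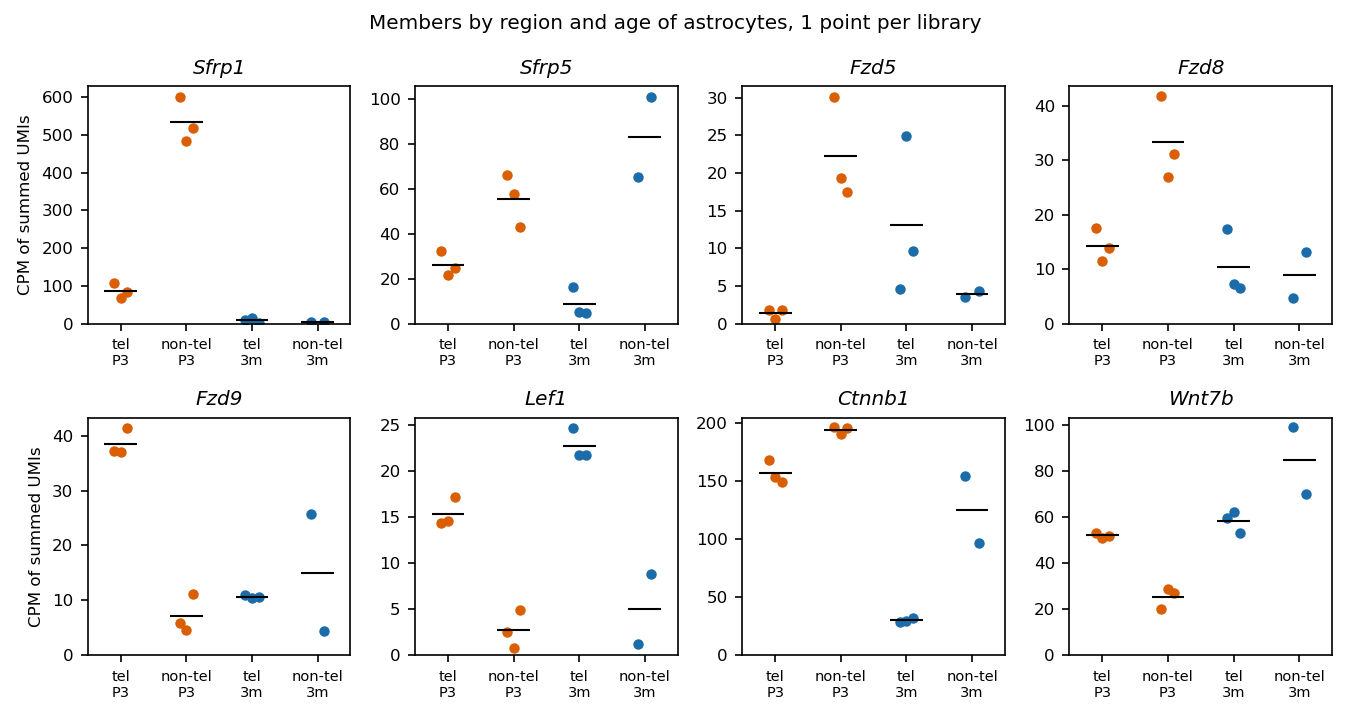
Level in CPM of 8 members in telencephalic and non-telencephalic astrocytes at P3 and 3m, with each point one library. 3m replicate 1 had 17 non-telencephalic cells and is not drawn there. Sfrp1 and Fzd5 were higher in non-telencephalic astrocytes at P3, Lef1 was lower, and at 3m Sfrp1 was at 2.42–15.5 CPM in both groups.

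At 3m the same regional split was not tested, since 3m replicate 1 had 17 non-telencephalic astrocytes, under the 20 cells per library set as the minimum, and values are given for replicates 1 to 3 of telencephalic and replicates 2 and 3 of non-telencephalic astrocytes. Ctnnb1 was at 28.3, 29 and 32.2 CPM in telencephalic and at 154 and 96.2 CPM in non-telencephalic astrocytes. Sfrp5 was at 16.4, 5.18 and 4.83 against 65.4 and 101 CPM. Both were thus higher outside the telencephalic groups, where oligodendrocyte markers also summed to 2870–3610 CPM, and Ctnnb1 was at 67.5–85.3 CPM and Sfrp5 at 0–0.787 CPM in the oligodendrocytes themselves.

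Lef1 was at 24.6, 21.7 and 21.7 CPM in telencephalic and at 1.17 and 8.75 CPM in non-telencephalic astrocytes, lower in the latter at both ages. Wnt7b was at 59.3, 62.1 and 53.1 against 99.2 and 70 CPM, higher in the non-telencephalic libraries. Wnt5a was at 0.912, 0 and 0.805 against 10.5 and 8.75 CPM. Sfrp1 was low in both groups, at 8.21, 15.5 and 2.42 against 3.5 and 4.37 CPM. Fzd2 was at 459, 467 and 420 against 166 and 276 CPM, and Dkk3 at 156, 212 and 174 against 38.5 and 65.6 CPM, both higher in the telencephalic groups. The non-telencephalic sums held the oligodendrocyte markers given above. Lef1, Fzd2, Dkk3 and also Wnt7b were lower in 3m oligodendrocytes than in 3m astroglia (-4.36, -6.07, -5.01 and -5.21 log2 units). The part of oligodendrocyte RNA in these regional values was not tested, nor was whether the regional differences changed with age.

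Within the P3 sub-clusters, pooled over libraries, Sfrp1 ranged from 37.5 CPM in sub-cluster 11 to 695 CPM in sub-cluster 10. Sub-cluster 10 had no UMI of Lef1 or Fzd10 and held Fzd8 at 55.6 CPM. Sub-cluster 15 stood out for Wnt4, at 36.5 CPM against at most 7.21 CPM in the other P3 sub-clusters, and had Wnt7b at 11.5 CPM; its ependymal markers summed to 832–1050 CPM and its astrocyte markers to 2510–2850 CPM, and their part was not tested. Sub-cluster 11 held Fzd9 at 77.2 CPM and Wnt5a at 43.1 CPM, with Lef1 at 2.99 CPM although it was grouped as telencephalic. Sub-cluster 12 had Apcdd1 at 152 CPM and Lef1 at 31.3 CPM beside 681 CPM of endothelial and 2560 CPM of mural markers, whose part was not tested. At 3m, sub-cluster 13 had Wnt7b at 115 CPM and Sfrp5 at 86.9 CPM, while sub-cluster 7 had Fzd2 at 437 CPM, Sfrp5 at 4.93 CPM and Lef1 at 21.9 CPM.

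Cycling astroglia of P3 (sub-clusters 6 and 8) were compared with the non-cycling telencephalic astrocytes of the same libraries. They had less Sfrp5, Dkk3, Dkk2, Fzd4, Fzd6, Fzd10, Fzd10os and Apcdd1 and more Fzd5. Of 29 members tested, 1 was called higher (9.05% of 13022 genes were) and 8 lower (7.76% were), with a member median of -0.38 against -0.03 for all genes. With library totals alone, 0 were higher and 9 lower, at a median over all genes of -0.13. Cycling markers summed to 1300–1660 CPM in these cells against 21.3–25.8 CPM.

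Sfrp5 was the inhibitor most reduced in the cycling cells, at 3.94, 6.58 and 4.17 CPM against 32.2, 21.6 and 24.9 CPM. No cycling library came near the lowest non-cycling one (-2.25 ± 0.15, adjusted p = 2.05e-14, edgeR). Dkk3 was at 53.9, 51.3 and 42.4 against 133, 110 and 148 CPM, again without overlap (-1.28 ± 0.08, adjusted p = 2.21e-15, edgeR). Fzd4 (-1.22), Fzd6 (-1.3) and Dkk2 (-2.13) were lower, and these calls held without any one library. The calls of Apcdd1 (-1.03, or -0.9 without P3 replicate 1), Fzd10 (-1.02, lost without P3 replicate 1 or 3), Fzd10os (-1.05, likewise) and Fzd5 (1.06, or 0.86 without P3 replicate 2) lay at the fold threshold. Sfrp2 (0.81), Ctnnb1 (0.48) and Nkd1 (0.41) were positive but not called, and no ligand was called.

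Endothelial cells differed from astroglia in most members tested. The clusters compared were END_7 at P3 (605 cells) and END_17 at 3m (163 cells). The P3 cells of clusters END_12 (349 cells) and END_13 (339 cells) were not used. P3 replicate 3 gave 99.1% and 83.2% of them, and each had fewer than 20 cells in some P3 library. Their median UMIs per cell were 1251 and 1362, against 26510 in END_7. At P3 the endothelial cells had more of the nuclear partners Lef1 and Tcf7, the targets Apcdd1 and Nkd1, the receptors Fzd1, Fzd4 and Fzd6, Lrp5, Dkk2 and Wnt5b, and less of Wnt7a, Wnt7b and the other 8 Fzd entries. Of 31 members tested, 10 were called higher (19.7% of 14678 genes were) and 16 lower (25.6% were), with a member median of -1.38 against -0.08 for all genes. At 3m, 20 members were tested, 11 were called higher (22.2% of 9442 genes) and 8 lower (23.9%), with medians of 1.32 and 0. The median over all genes under library totals alone was -0.26 at P3 and 0.29 at 3m, with 2669 genes higher and 1877 lower at 3m in place of 2095 and 2259. Endothelial markers summed to 4090–5820 CPM in END_7 and 9110–14400 CPM in END_17, beside 2090–3520 and 6410–7370 CPM of mural markers and 7040–19500 and 14000–30900 CPM of 2 haemoglobin genes.

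Apcdd1 was the target gene most marked in endothelial cells. It was at 753, 521 and 502 CPM in END_7, against 13.1–21.3 CPM in P3 astroglia (5.19 ± 0.15, adjusted p = 7.8e-13, edgeR), and at 254, 136 and 153 CPM in END_17, against 4.75–9.22 CPM (4.37 ± 0.27). Endothelial values were far above astroglial values in every library at both ages. Lef1 was at 96.3, 96.2 and 96.5 CPM in END_7 (3.19 ± 0.11, adjusted p = 5.69e-12, edgeR) and at 274, 397 and 328 CPM in END_17 (3.84 ± 0.22, adjusted p = 3.6e-12, edgeR), above every astroglial library. Tcf7 was at 80.5, 78.1 and 78.3 CPM in END_7 and at 48, 46.7 and 73 CPM in END_17, while no astroglial library exceeded 4.52 CPM.

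The endothelial receptor set also set these cells apart. Fzd6 was at 90.1, 83.1 and 72.4 CPM in END_7 (4.09 over astroglia) and at 176, 97.3 and 148 CPM in END_17 (3.26). Fzd4, which with Norrin maintains retinal and brain vessels, was at 45.8, 37.9 and 36.3 CPM in END_7 (2.74) and at 60.5, 42.8 and 60.8 CPM in END_17 (1.29). Fzd4 and Fzd6 were above astroglia in every library at both ages. By contrast Fzd2 was at 1.76–2.86 CPM in END_7 (-5.77) and Fzd9 at 0.271–0.476 CPM (-6.02).

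Ligands were divided between the cell types. Wnt7a was at 0.142, 0.714 and 0.542 CPM in END_7 (-5.5 ± 0.3, adjusted p = 7.86e-10, edgeR) and had no UMI in END_17, so that 3m astroglia were at least 9.81-fold higher. Wnt7b was at 1.14, 0.714 and 1.49 CPM in END_7 (-5.1) and had 2 UMIs in END_17, an astroglial to endothelial ratio of 41.7 (95% counting interval 11.4 to 346). Both were lower in the endothelial clusters in every library. Wnt5b was higher there, at 3.84, 6.43 and 5.28 CPM in END_7 (1.4) and with 14 UMIs in END_17 against 2 in 3m astroglia, a ratio of 25.5 (5.85 to 231). Both endothelial clusters also held the mural markers given above. Wnt5b, like Dkk2, was higher still in the P3 mural cells described below than in END_7. The part of mural RNA in the endothelial levels was not tested. Wnt5a did not pass between END_7 and P3 astroglia but was higher in END_17 than in 3m astroglia (2.91 ± 0.59, adjusted p = 0.000258, edgeR), at 39.1, 11.7 and 26.8 CPM.

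From P3 to 3m the endothelial clusters gained Lef1 and lost Apcdd1, Fzd1, Dkk2 and Sfrp2. Of 18 members tested, 1 was called higher (11.6% of 10271 genes were) and 4 lower (10.7% were), with a median of 0.34 over the members and -0.02 over all genes. From END_7 to END_17 cycling markers went from 222–373 to 0–1.78 CPM, oligodendrocyte markers from 1.28–3.33 to 119–650 CPM and the median mitochondrial share from 1.63% to 3.74%, and their part was not tested. The values above gave a rise of 1.67 ± 0.18 for Lef1 (adjusted p = 7.71e-07, edgeR), with every 3m library above every P3 library. Apcdd1 fell by 1.76 ± 0.23 on the log2 scale (adjusted p = 7.28e-06, edgeR), also without overlap. The other targets, Axin2 and Nkd1, were not called. Axin2 was at 65.4, 50.7 and 50 CPM in END_7 and at 105, 58.4 and 129 CPM in END_17 (0.77, adjusted p = 0.0121, edgeR, under the fold threshold), and Nkd1 at 186, 143 and 108 against 203, 171 and 122 CPM, with overlapping ages (0.1, adjusted p = 0.757).

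Fzd1 was at 17.6, 16.4 and 17.9 CPM in END_7 and had 3 UMIs in END_17, so that P3 was 7.16 times 3m (95% counting interval, 2.43 to 34.9; adjusted p = 0.000584 by edgeR). Dkk2 was at 19.5, 15.9 and 10.3 CPM in END_7 with 3 UMIs in END_17 (ratio 6.17, interval 2.09 to 30.1), and Sfrp2 at 27.6, 24.8 and 13.1 CPM with 1 UMI (ratio 26.1, interval 4.66 to 1030). These falls rested on nearly empty 3m sums. Ctnnb1 was at 364, 270 and 200 CPM in END_7 and at 662, 580 and 523 CPM in END_17, higher in every 3m library, but its log2 fold change of 0.99 (adjusted p = 0.00087, edgeR) lay just under the threshold. Fzd6 (0.73), Lrp6 (0.6) and Tcf7 (-0.59) also had adjusted p-values under the limit without the fold.

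**Figure D3:**
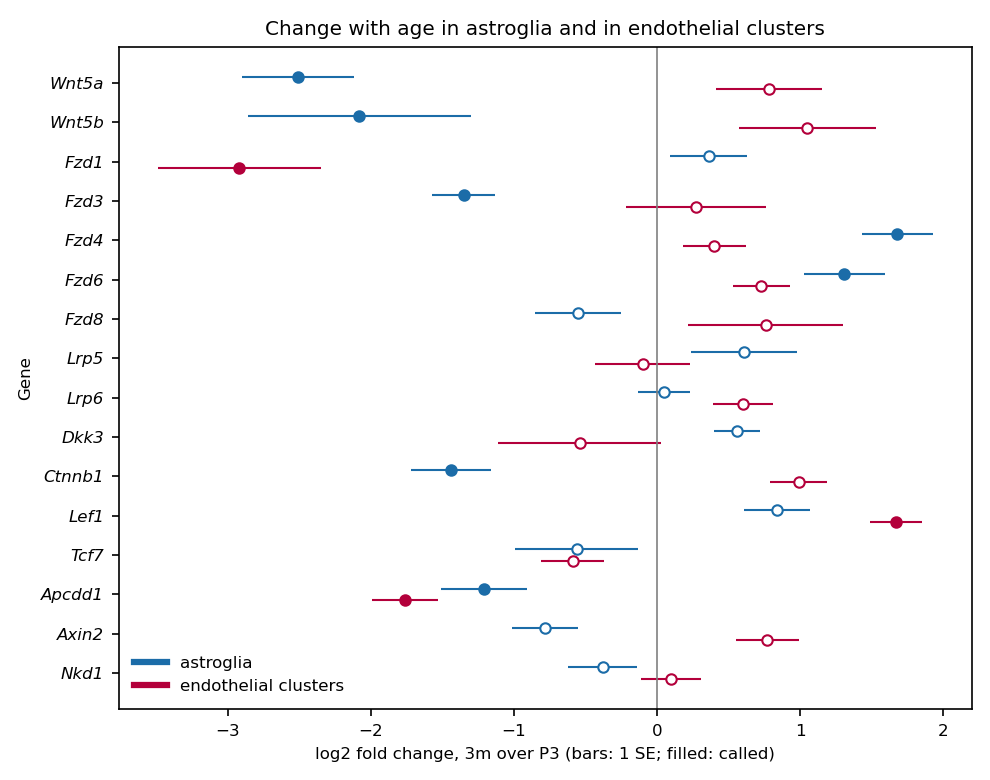
Log2 fold change from P3 to 3m of 16 members tested in both astroglia and endothelial clusters, with bars of 1 SE and filled points for called members. Sfrp2 and Dkk2, also tested and called lower in both, are not drawn. Ctnnb1 lay at -1.44 in astroglia and 0.99 in endothelial clusters and Wnt5a at -2.51 and 0.78, while Lef1 was above 0 and Apcdd1 below 0 in both.

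Whether the change with age differed between the cell types was tested in one model with an interaction term, added after seeing the data. Of 28 members tested, 5 had a higher endothelial than astroglial change (7.92% of 13300 genes did) and 2 a lower one (8.04% did), with medians of -0.3 and 0.02. Ctnnb1 differed by 2.43 ± 0.26 (adjusted p = 2.64e-08, edgeR), Wnt5a by 3.16 ± 0.55 (adjusted p = 8.06e-05) and Axin2 by 1.36 ± 0.25 (adjusted p = 0.000156), each with a negative age difference in astroglia and a positive one in the endothelial clusters. Fzd4 differed by -1.37 ± 0.3 (adjusted p = 0.0011), rising in astroglia with only 0.4 in endothelial clusters. Fzd3, which differed by 1.66 ± 0.5, lost its call without 3m replicate 3 (1.32, adjusted p = 0.223). The difference for Lef1 (0.74, adjusted p = 0.0336) passed the limit on the adjusted p but not the fold minimum, and Apcdd1 (-0.73, adjusted p = 0.171) was not shown to differ between the cell types. END_17 held more astrocyte markers than END_7, 235–996 against 90.9–123 CPM, and their part in these differences was not tested.

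Mural cells of P3 (PER_6, 628 cells, with 17300–19600 CPM of mural and 50–147 CPM of endothelial markers) formed a further pattern. They had more of all 3 feedback targets, of Tcf7, Fzd6, Lrp5, Dkk2, Sfrp2, Wnt5b and Wnt11 than astroglia, and less of Wnt7a, Wnt7b and most Fzd genes. Of 32 members tested, 10 were called higher (14.8% of 14144 genes were) and 14 lower (20% were), with a member median of -0.6 against -0.11 for all genes. Dkk2 was at 57.1, 46.5 and 42.2 CPM and Wnt5b at 20.9, 30.7 and 42.2 CPM in mural cells. In astroglia neither exceeded 3 CPM in the pooled P3 sum, and the differences were 5.15 ± 0.24 and 3.82 ± 0.27 (adjusted p = 2.46e-15 and 1.25e-11, edgeR). Wnt11 had 15 UMIs in mural cells and 1 in all P3 astroglia, a ratio of 268 (95% counting interval 41.3 to 11300).

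Axin2 was at 149, 90.4 and 112 CPM in mural cells, against 27.9–41.9 CPM in P3 astroglia (1.73 ± 0.11). Apcdd1 was at 114, 71.1 and 91 CPM (2.34 ± 0.13) and Nkd1 at 86.7, 64.9 and 57.5 CPM (1.2 ± 0.13). All 3 targets were thus above astroglia in every library, with adjusted p-values of 1.01e-12, 4.66e-14 and 1.75e-08 (edgeR). Sfrp2, without a UMI in 3m astroglia, was at 98.8, 46.5 and 62.6 CPM in mural cells and at 19.5–24.6 CPM in P3 astroglia (1.64 ± 0.15). The calls of Fzd5 and Sfrp4, both lower in mural cells, were lost when a library was left out (Fzd5 -1.12 to -1.58), and Dkk3 fell short without P3 replicate 1 (-0.99).

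Oligodendrocytes of 3m (ODC_2 and ODC_10, 1731 cells) had less of most members than 3m astroglia but more Wnt3 and Nkd1. Of 24 members tested, 2 were called higher (18% of 10932 genes were) and 18 lower (25.4% were), and the member median was -4.19 against 0 for all genes. Wnt3, a canonical ligand, was at 39, 37.5 and 35.8 CPM and had no UMI in 3m astroglia, at least 56.2-fold higher in oligodendrocytes. END_17 had no UMI of it either, and P3 astroglia held 33 UMIs of it in all (0.327–0.582 CPM). Nkd1 was at 137, 132 and 120 CPM against 24.2, 17.4 and 21.7 CPM (2.67 ± 0.15, adjusted p = 1.62e-09, edgeR), without overlap.

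The other feedback targets went the opposite way in oligodendrocytes. Axin2 was at 4.5, 5.25 and 4.43 CPM against 23.3, 12.5 and 19.7 CPM in 3m astroglia (-1.88 ± 0.29, adjusted p = 6.82e-05, edgeR), and Apcdd1 was lower too (-1.92 ± 0.49). Lef1 was at 1.5, 0.262 and 0.738 CPM (-4.36), Fzd2 at 4.93, 5.77 and 6.27 CPM (-6.07) and Wnt7b at 0.857, 1.84 and 2.95 CPM (-5.21), all far below every astroglial library. Lrp6 was at 36.9, 34.6 and 25.4 CPM, overlapping 3m astroglia. The call of Fzd5 was lost without 3m replicate 2 (-0.91, adjusted p = 0.116). Of ODC_10, 91.1% came from 3m replicate 1.

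**Figure D4:**
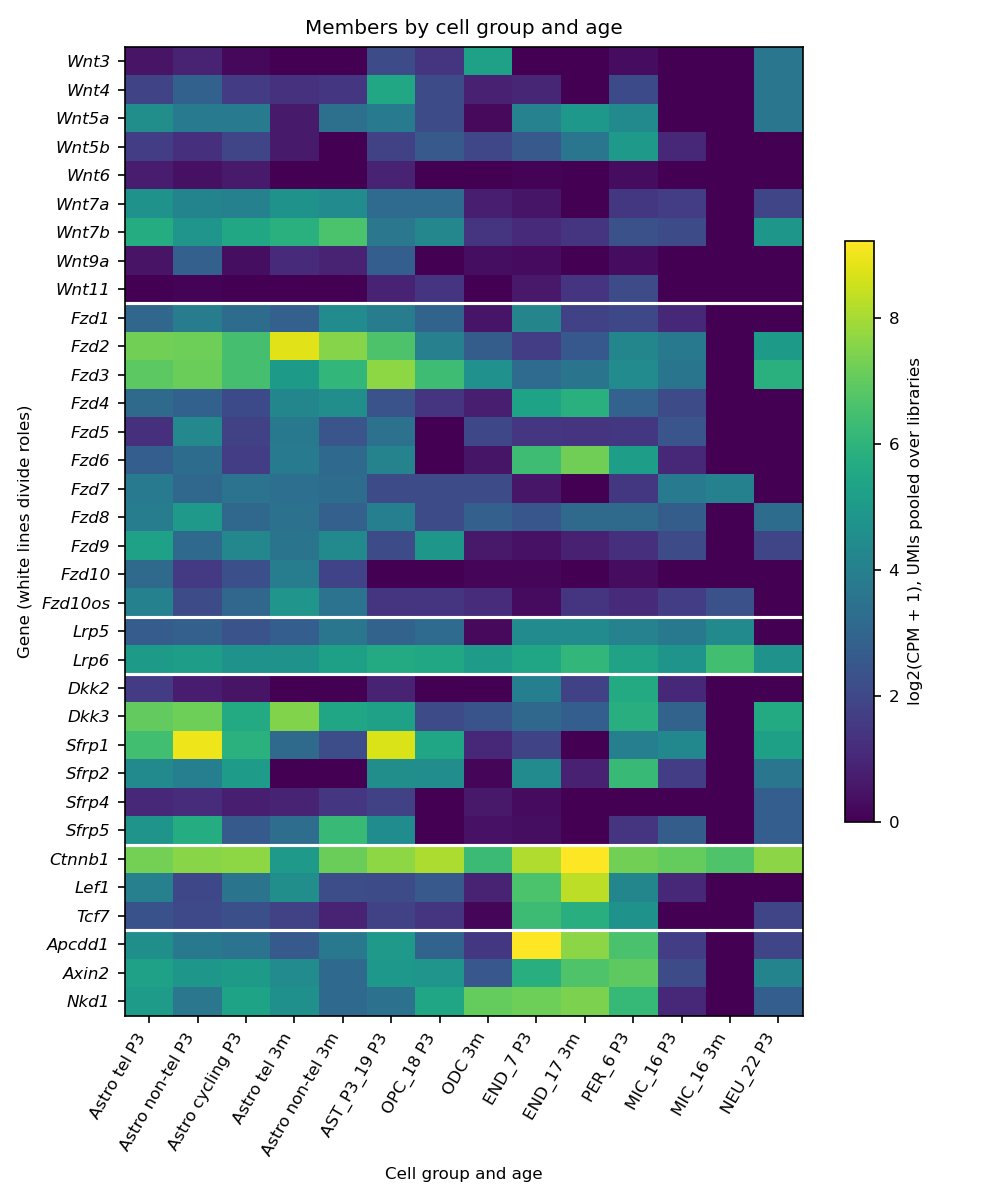
Heat map of log2(CPM + 1), pooled over libraries, for 34 members in 14 cell groups, with members ordered by role. The vessel clusters share Apcdd1, Tcf7 and Fzd6, astroglia hold Wnt7a, Wnt7b and Fzd2, and oligodendrocytes hold Wnt3. Nkd1 is high in oligodendrocytes and in both endothelial clusters. Cells of AST_P3_19 are astroglial and are also counted in the P3 astroglial columns.

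Smaller groups were not tested on their own and are given as pooled CPM. In LOW_23, a cluster of 31 P3 and 14 3m cells that the authors left unidentified, Wnt4 was at 154 CPM on 68 UMIs at P3 and at 277 CPM at 3m, and Fzd3 was at 500 CPM at P3. Of its P3 cells 87.1% came from one library, as did all at 3m. AST_P3_19 (96 cells) had Wnt4 at 44.1 CPM, Fzd3 at 201 CPM and Sfrp1 at 422 CPM. The study's methods name it among the astroglial clusters that were re-clustered. Its cells are therefore also part of the P3 astroglial sums and sub-clusters above, and not a separate group. Ependymal markers summed to 6170 CPM in LOW_23 in the 1 P3 library with enough cells and to 934–1350 CPM in AST_P3_19, and their part was not tested. Oligodendrocyte precursors of P3 (OPC_18, 94 cells) had Fzd3 at 80.7 CPM and Nkd1 at 43.7 CPM. LOW_21, 68 cells of 3m, had Fzd6 at 129 CPM, Apcdd1 at 156 CPM and Axin2 at 102 CPM.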

How the data were processed

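Reads of 10x 3′ v3.1 libraries were processed by the authors with Cell Ranger against mm10 and with Seurat (3.1.1 per the submitters' processing notes, whereas the study's methods name a later version). The deposited table holds raw UMI counts of 32285 genes; the authors deposited cluster names and sub-cluster numbers for cells that passed 500 genes and stayed below 10% of mitochondrial UMIs. Doublets were not called here. Members were fixed by symbol. Members and lists were chosen with earlier results of these data known.

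UMIs were summed per library and cell group (at least 20 cells per library) and tested with edgeR 4.0.16 in R 4.3.3 (quasi-likelihood, TMM, filterByExpr, two-sided, Benjamini-Hochberg over all genes; library as a block between cell groups of one age). Calls needed an adjusted p no larger than 0.05 and a log2 fold change of 1 or more in either direction. A p-value weighs a difference against the spread between preparations, not between single animals. Between cell groups of one age it weighs the difference against how evenly the libraries agree on it. Astroglia were all cells with a sub-cluster number. Telencephalic sub-clusters were 0, 1, 2, 9 and 11 (P3) and 7 and 14 (3m), non-telencephalic 3, 4, 5, 10, 12 and 15 (P3) and 13 and 16 (3m). Groups at 0 were set to a floor of 3 UMIs over the group, and ratios on 1 to 3 UMIs carry exact 95% intervals, both for counting error only. Library totals were 32193875 to 37795021 UMIs (P3) and 5471573 to 10522151 (3m). Alternatives included DESeq2 1.42.0, other scaling and filters, thinning and leaving out libraries. The stricter cell filter left 12 astroglial cells in 3m replicate 1, under the 20 cells set for the main tests. The test script was tested on simulated data. Motifs and windows came from RefSeq promoters. Every member is named by the rule; wider pathway genes are given as counts with examples that were called, and sub-clusters and small groups were singled out after their values were seen.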

Additional observations from a re-analysis of the deposited data

Results flagged for a closer look

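The change with age (log2, 3m over P3) in the endothelial clusters minus that in astroglia passed the interaction test of edgeR for 7 members, and each is listed for that reason. The comparison was added after the data were seen, and END_7 and END_17 are different clusters. The difference was 2.43 (SE 0.26, adjusted p = 2.64e-08) for Ctnnb1, 3.16 (SE 0.55, adjusted p = 8.06e-05) for Wnt5a, 1.36 (SE 0.25, adjusted p = 0.000156) for Axin2, -1.37 (SE 0.3, adjusted p = 0.0011) for Fzd4 and 1.66 (SE 0.5, adjusted p = 0.0152) for Fzd3. For Fzd1 it was -3.38 (SE 0.68, adjusted p = 0.00043), a fitted value that rests on 3 UMIs in END_17. For Wnt5b it was 2.95 (SE 1.05, adjusted p = 0.0433), which rests on 2 UMIs in 3m astroglia and was not called in any of the 6 fits without one library (adjusted p from 0.057 to 0.207). Groups of 3 libraries were too small to look for single libraries that stand apart.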

How the results depend on the processing

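Of 2211 member values under alternatives, 2026 kept their direction and side of the threshold, 73 passed it only under the alternative, 62 no longer passed and 50 changed sign, 2 of these from called members. The cause of the changes was not tested unless stated. Thinned to the smallest sum, 2720 genes and 9 members were called between ages in astroglia and 952 and 3 in endothelial clusters, with fewer genes tested. Leaving out one library gave 3 to 6 endothelial members, 3 without P3 replicate 2 or P3 replicate 3, where fewer members were tested. Without a minimum fold, calls were 6621 genes for astroglial age, 6826 by region, 8104 (22 members) for cycling, 10794 for END_7, 7828 for mural cells, 7249 for oligodendrocytes and 10 members for endothelial age.

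Signs that changed in astroglial age were Lrp6 0 (DESeq2), -0.15 (library totals), -0.07 (no filter on low counts; stricter cell filter), -0.14 (telencephalic alone) and -0.04 to 0.19 without one library (-0.01 without P3 replicate 2); Sfrp5 -0.03 (library totals), -1.37 (telencephalic alone), -0.14 (without cycling cells), -0.99 (stricter filter) and -0.19 to 0.25 without one library. Without one library, Sfrp4 ranged from -0.03 to 0.69 and Wnt9a from -0.95 to 0.22. Fzd7 was 0.24 when thinned and 0.23 under the stricter filter, and Fzd1 -0.06 in telencephalic cells and -0.33 under the stricter filter, for which 3m replicate 1 kept 12 astroglial cells. Over all barcodes, whose cell types differ between ages, values were Sfrp5 -0.45, Sfrp4 -0.42, Fzd1 -0.97, Wnt4 0.31, Wnt7a -0.53, Fzd4 -0.12, Dkk3 -0.59, Nkd1 0.86, Fzd6 -0.37, Wnt7b -0.05 and Lrp5 -0.74. Nkd1 in endothelial age was -0.02 with no filter. By region, Dkk3 was -0.02 (no filter), and Fzd2 0.01 and Lrp5 0.04 (library totals). Sfrp2 in END_7 against astroglia was -0.08 (library totals). The other sign changes came from leaving out one library, with ranges in endothelial age of -0.15 to 0.29 for Nkd1, -1.23 to 0.06 for Dkk3, -0.48 to 0.1 for Lrp5 and -0.31 to 0.85 for Fzd3; by region -0.05 to 0.08 for Dkk3; in cycling cells -0.03 to 0.01 for Tcf7; in END_7 -0.12 to 0.36 for Sfrp2 (-0.01 without P3 replicate 1); in mural cells -0.54 to 0.53 for Wnt4 and -0.47 to 0.15 for Fzd4; and in the interaction -0.09 to 5.87 for Sfrp2, -0.28 to 0.04 for Tcf7, -3.7 to 2.73 for Fzd9, -0.9 to 0.07 for Wnt7b and -1.16 to 0.01 for Lrp5. Nkd1 was -0.04 without P3 replicate 3.

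Deviations from the mean of each age were correlated between same-numbered libraries. The values were r = 0.206, 0.0993 and 0.039 in astroglia and 0.242, 0.0742 and 0.0579 in endothelial clusters. All were positive, but not every library correlated best with its own number. Whether a number marks a shared preparation was not settled by this, and the main age tests had no replicate block. With a replicate block, 4563 genes and 14 members were called in astroglia and 2511 genes and 5 members in endothelial clusters. The 3m regional test and the region-by-age interaction were not run, for want of 20 cells in one library.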

Other observations

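Wnt co-receptors and modifiers outside the member list also divided the cell types. Reck and Adgra2, which encode a complex on endothelial cells that makes them sensitive to Wnt7a and Wnt7b, were higher in the vessel clusters. Adgra2 was at 61.7, 52.6 and 43.2 CPM in END_7, at 78.3, 70 and 87.6 CPM in END_17 and at 55.4, 37.7 and 43.7 CPM in PER_6, while no astroglial library exceeded 0.692 CPM. Reck was at 5.69, 5 and 5.82 CPM in END_7 and at 76.5, 46.7 and 75.4 CPM in END_17, a rise with age in every library (3.52 ± 0.27 on the log2 scale, adjusted p = 8.14e-09 by edgeR). It rose in astroglia too, from 1.21, 1.05 and 1.46 to 13, 5.97 and 4.75 CPM (2.8 ± 0.42, adjusted p = 0.000116), and the changes of the cell types were not shown to differ (0.57, adjusted p = 0.453).

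Wls in mural cells of P3 was at 440, 334 and 497 CPM, above every P3 astroglial and END_7 library. Its change with age was lower in endothelial clusters than in astroglia by 3.77 ± 0.19 on the log2 scale (adjusted p = 5.33e-15, edgeR), with 118, 115 and 126 CPM in END_7 and 117, 89.5 and 102 CPM in END_17. Notum, a secreted enzyme that inactivates Wnt proteins, was at 54.3, 48.3 and 47.5 CPM in END_7 and at 55.1, 38.9 and 46.2 CPM in END_17, above every astroglial library. Of the 59 wider pathway genes, 39 were tested between ages in endothelial clusters, 3 of them higher (Reck, Lgr4 and Prickle1) and 4 lower (Frzb, Ccnd1, Myc and Nkd2), where 11.6% and 10.7% of all genes were called. Between P3 regions 47 were tested, with Celsr1 higher and 8 lower outside the telencephalic sub-clusters, 4 of these from the R-spondin list (Lgr6, Rnf43, Rspo3 and Znrf3), where 12% and 6.68% of all genes were called.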
